A study of Mus musculus with 12 samples.

Results

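Purinergic signalling genes code for the enzymes that cut extracellular ATP to adenosine and for the receptors that sense ATP, other nucleotides and adenosine. Of the 38215 genes counted, 8 were described here: the ecto-enzymes Nt5e and Entpd1, the adenosine receptors Adora2a and Adora2b, the ATP-gated channels P2rx4 and P2rx7, and the nucleotide receptors P2ry2 and P2ry6. They were listed by symbol, and Nt5e was chosen for its large fall with LPS and its rise with SF3a1 siRNA in these libraries, so its gene-level changes are given as values without a test. The other 7 were tested among the 14983 genes with enough counts to be kept, and all 8 were kept.

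The cells were RAW264.7, an established macrophage line from BALB/c mice, in 12 cultures forming 4 groups of 3 replicates. They were transfected with non-targeting control siRNA or with siRNA against SF3a1, a core component of the U2 snRNP part of the spliceosome. At 24 hours after transfection they were left without LPS or given 20 ng/ml LPS, the bacterial lipopolysaccharide sensed by TLR4, for 4 hours. All 4 groups therefore carried a siRNA and went through transfection, and no group was left untransfected. The replicates were triplicate transfections of 1 line, so that p-values measure the spread between these cultures. The sum of counts on genes per library ran from 20659511 to 40840082 with control siRNA and no LPS, from 13021502 to 41091887 with control siRNA and LPS, from 12746019 to 27789833 with SF3a1 siRNA and no LPS, and from 17174058 to 36506558 with SF3a1 siRNA and LPS. Replicate 1 was the deepest of every group and was the only one sequenced in more than 1 run.

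ATP leaves stressed or dying cells and acts as a danger signal on P2X channels and on P2Y receptors, which couple to G proteins. At the cell surface CD39, the product of Entpd1, removes phosphates from ATP and ADP, and CD73, the product of Nt5e, turns AMP into adenosine. Adenosine then acts on receptors such as A2a and A2b, which raise cAMP and are known in macrophages for dampening inflammatory cytokine production, whereas P2X7 is known for triggering the NLRP3 inflammasome and the release of IL-1β.

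Sf3a1, the target of the siRNA, checked the labels. Without LPS its level was 173, 216 and 185 CPM in replicates 1, 2 and 3 with control siRNA and 27.1, 27.5 and 32.1 CPM with SF3a1 siRNA, where CPM is the count relative to the library total after TMM scaling. With LPS it was 150, 194 and 157 CPM with control siRNA and 30.3, 26.7 and 45.0 CPM with SF3a1 siRNA. No library with SF3a1 siRNA reached a library with control siRNA. All 8 macrophage markers (Csf1r, Cd68, Lyz2, Adgre1, Itgam, Spi1, Cd14 and Fcgr1) were counted in every library, with a summed level of 9740 to 16400 CPM that was led by Lyz2. The summed levels were 0 to 0.192 CPM for the 5 T cell markers, 0 to 0.544 CPM for the 4 B cell markers, 0.0729 to 0.342 CPM for the 5 fibroblast markers and 0.121 to 1.91 CPM for the 4 endothelial markers. The endothelial sum was higher in the 3 libraries with control siRNA and LPS, at 1.24, 1.91 and 1.79 CPM led by Pecam1 or Cdh5, than in the 3 without LPS, at 0.252, 0.223 and 0.383 CPM. With SF3a1 siRNA it was 1.6, 0.121 and 0.529 CPM with LPS, which overlapped the 0.328, 0.501 and 0.372 CPM without LPS. With LPS and control siRNA 5 of the 8 macrophage markers rose (background 13.8% of all tested genes) and 1, Csf1r, fell (background 18.3%). A part of either list in the results below was not tested. As the libraries came from whole cultures, a lower level in fewer cells and a lower level per cell cannot be told apart.

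Nt5e (ENSMUSG00000032420), the gene of CD73, spans bases 88327197 to 88372092 of chromosome 9 (mm10, forward strand). With control siRNA and no LPS it had 5.06, 31.2 and 14.9 CPM in replicates 1, 2 and 3, from 221, 698 and 350 counts. With control siRNA and LPS it had 0.131, 2.07 and 0.280 CPM, from only 5, 26 and 5 counts. Every library with LPS therefore lay below every library without it, and the values with LPS rest on few counts. With SF3a1 siRNA it had 19.7, 62.1 and 39.2 CPM without LPS and 1.51, 12.9 and 5.39 CPM with LPS, from 542, 1114 and 527 and from 50, 214 and 112 counts. In these cells too the libraries with LPS were all below those without LPS. The ranges of the siRNA groups overlapped in both conditions, since replicate 2 was far above replicate 1 in each group.

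Nt5e varied widely between replicates. The order was replicate 2, then 3, then 1 in all 4 groups, and the highest library was 6.15 times the lowest with control siRNA and no LPS, 15.7 times with control siRNA and LPS, 3.14 times with SF3a1 siRNA and no LPS and 8.55 times with SF3a1 siRNA and LPS. Within a replicate number the changes were all in 1 direction. With control siRNA, Nt5e was 38.5, 15.1 and 53.1 times lower with LPS than without it in replicates 1, 2 and 3. With SF3a1 siRNA it was 13.1, 4.80 and 7.27 times lower with LPS, a smaller fall than with control siRNA in each of the 3. SF3a1 siRNA without LPS went with a level 3.90, 1.99 and 2.63 times that of control siRNA, and with LPS 11.5, 6.26 and 19.2 times. The plot of Nt5e by replicate shows these parallel courses. On the log2 scale of the model the fall with LPS and control siRNA was -4.69. It was -6.48 when replicate 2 of control siRNA with LPS, the group's highest library, was left out. The fits that each left out 1 library ranged from -6.48 to -3.89.

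**Figure D1:**
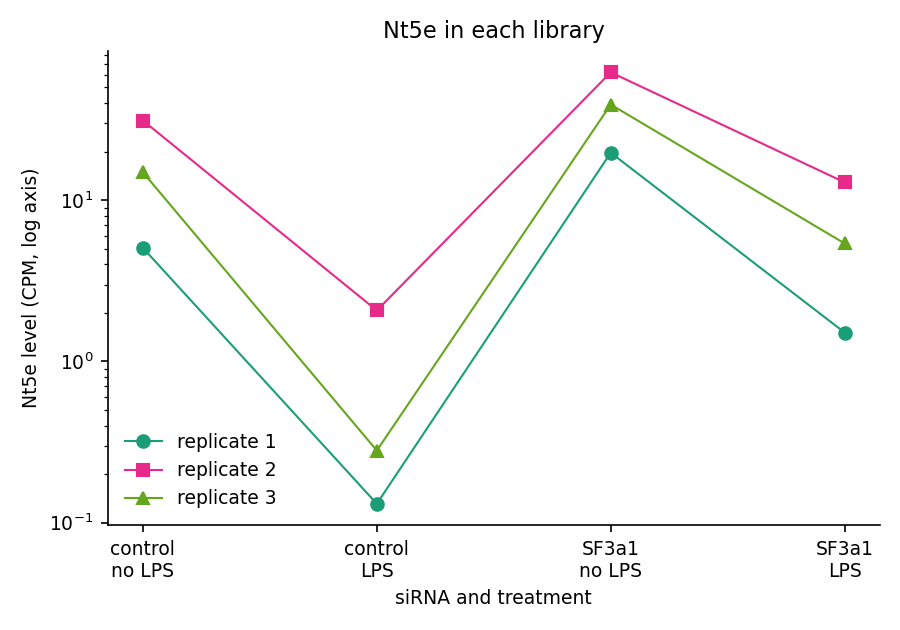
Nt5e level in each of the 12 libraries (CPM, log axis) by siRNA and treatment, with libraries of the same replicate number joined by a line. Replicate 2 (12.9 CPM with SF3a1 siRNA and LPS, 62.1 CPM without LPS) lies above replicates 3 and 1 in every group, and each line falls with LPS and rises with SF3a1 siRNA.

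Exon usage within Nt5e was a measure that the choice of the gene did not use. The deposited exon counts divide Nt5e into 9 bins, numbered from the start of the gene, and they cover 11 libraries, since exon counts of replicate 3 of control siRNA with LPS were not used here. The last bin held 39.8 ± 9.20% (SD, n = 3) of all Nt5e bin counts with control siRNA and no LPS, 34.3 ± 10.8% (SD, n = 3) with SF3a1 siRNA and no LPS and 43.2 ± 3.52% (SD, n = 3) with SF3a1 siRNA and LPS. The first bin held 8.29 ± 1.14% (SD, n = 3), 12.4 ± 5.70% (SD, n = 3) and 13.8 ± 8.13% (SD, n = 3) in the same groups. None of the 9 bins was called in any comparison by edgeR's diffSpliceDGE, and none had an unadjusted p under 0.05. With control siRNA and LPS the whole gene had only 37 bin counts over 2 libraries, too few to show a change in the share of a single bin.

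By the likeness of log2 CPM over the 12 libraries, the genes that followed Nt5e most closely among 13226 genes averaging 1 CPM or more were St14, Psen2, Gcnt1, Mef2a and Fli1. St14, the gene of the membrane protease matriptase, had the highest Pearson's r (0.978) and a mean of 11.9, 5.26, 15.1 and 9.93 CPM in the groups in the order control siRNA without and with LPS and SF3a1 siRNA without and with LPS. In the same order Gcnt1, a glycosyltransferase of mucin-type glycans, had means of 24.3, 8.60, 41.2 and 20.2 CPM and an r of 0.966. Mef2a, a transcription factor, had means of 223, 123, 322 and 186 CPM and an r of 0.953. For Psen2 and Fli1, r was 0.968 and 0.951. Their group means spanned a far narrower range than those of Nt5e. The genes were chosen for this likeness, so the order of their group means is not a result, and the points share the replicate order described above, so that r reflects the replicates as well as the groups. P2rx6, another purinergic gene, had an r of 0.924 and rank 21, and r is not given for the remaining purinergic genes.

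Entpd1 (ENSMUSG00000048120), the gene of CD39, spans bases 40612366 to 40741602 of chromosome 19 (forward strand), where the genes Gm16027 and Gm8783 of the same strand overlap it. It was close to the limit of detection. It had 0.367, 0.357 and 1.11 CPM with control siRNA and no LPS, 0.368, 0.159 and 0.449 CPM with control siRNA and LPS, 0, 0.780 and 0.520 CPM with SF3a1 siRNA and no LPS, and 0.182, 0.302 and 0.673 CPM with SF3a1 siRNA and LPS. The highest count was 26 in any library and 1 library had none, and the groups overlapped in all comparisons. The filter on low counts kept it mostly through 1 side of each comparison, so its changes are given as values without a p. For LPS with control siRNA the log2 fold change was -0.81, with a 95% interval of the fit from -2.75 to 1.12. A change could not be shown at this depth, and none of its 33 exon bins had enough counts to be tested.

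Adora2a was kept by the filter on low counts only through its libraries with LPS, so the counts for LPS are given over the other 6 tested genes. By edgeR's quasi-likelihood test at an adjusted p of 0.1 or less, 4 of the 6 rose with LPS and control siRNA and 1 fell, so that 5 of 6 were called, against a background of 32.1% of all tested genes called in either direction (13.8% higher, 18.3% lower). Entpd1, the gene that was not called, had enough counts for the filter mostly in libraries without LPS. With Entpd1 left out as well, 4 of 5 rose and 1 fell. The groups did not overlap for 5 of 6, against 40.2% of all tested genes. With SF3a1 siRNA, LPS gave 2 calls of 6 (background 10.7%), of which 1 rose (background 6.6%) and 1 fell (background 4.06%), and 3 of 6 did not overlap (background 24.8%). SF3a1 siRNA without LPS raised 4 of 7 (background 13.7%) and lowered none (background 20.1%, 33.8% for both directions), with no overlap for 5 of 7 (background 45.6%). SF3a1 siRNA with LPS raised 1 of 7 (background 18.4%) and lowered none (background 20.4%, 38.8% for both directions), and 1 of 7 did not overlap (background 39.1%). The difference between the LPS effects with SF3a1 and with control siRNA, the interaction, was called for 1 of 7 (background 3.47%, of which 1.54% higher and 1.94% lower), as a lower value. Between the siRNAs, Entpd1 had enough counts for the filter mostly in libraries with SF3a1 siRNA. Without Entpd1, LPS with SF3a1 siRNA raised 1 of 5 and lowered 1. SF3a1 siRNA then raised 4 of 6 without LPS and 1 of 6 with LPS. These comparisons share groups: the libraries with control siRNA and no LPS enter both the LPS comparison and the SF3a1 comparison.

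Samples with the same replicate number deviated together, and a model with the replicate number as a block found more calls. With it, 4 of the 6 without Adora2a were called for LPS with SF3a1 siRNA (background 20.8%), 4 of 7 for SF3a1 siRNA with LPS (background 50.9%) and 2 of 7 for the interaction (background 11.7%). The counts for LPS with control siRNA and for SF3a1 siRNA without LPS stayed at 5 of 6 (background 43.9%) and 4 of 7 (background 47.1%). Entpd1 was among the 6 and the 7 and was called in no comparison with the block. The genes whose call changed are given with their blocked value below.

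**Figure D2:**
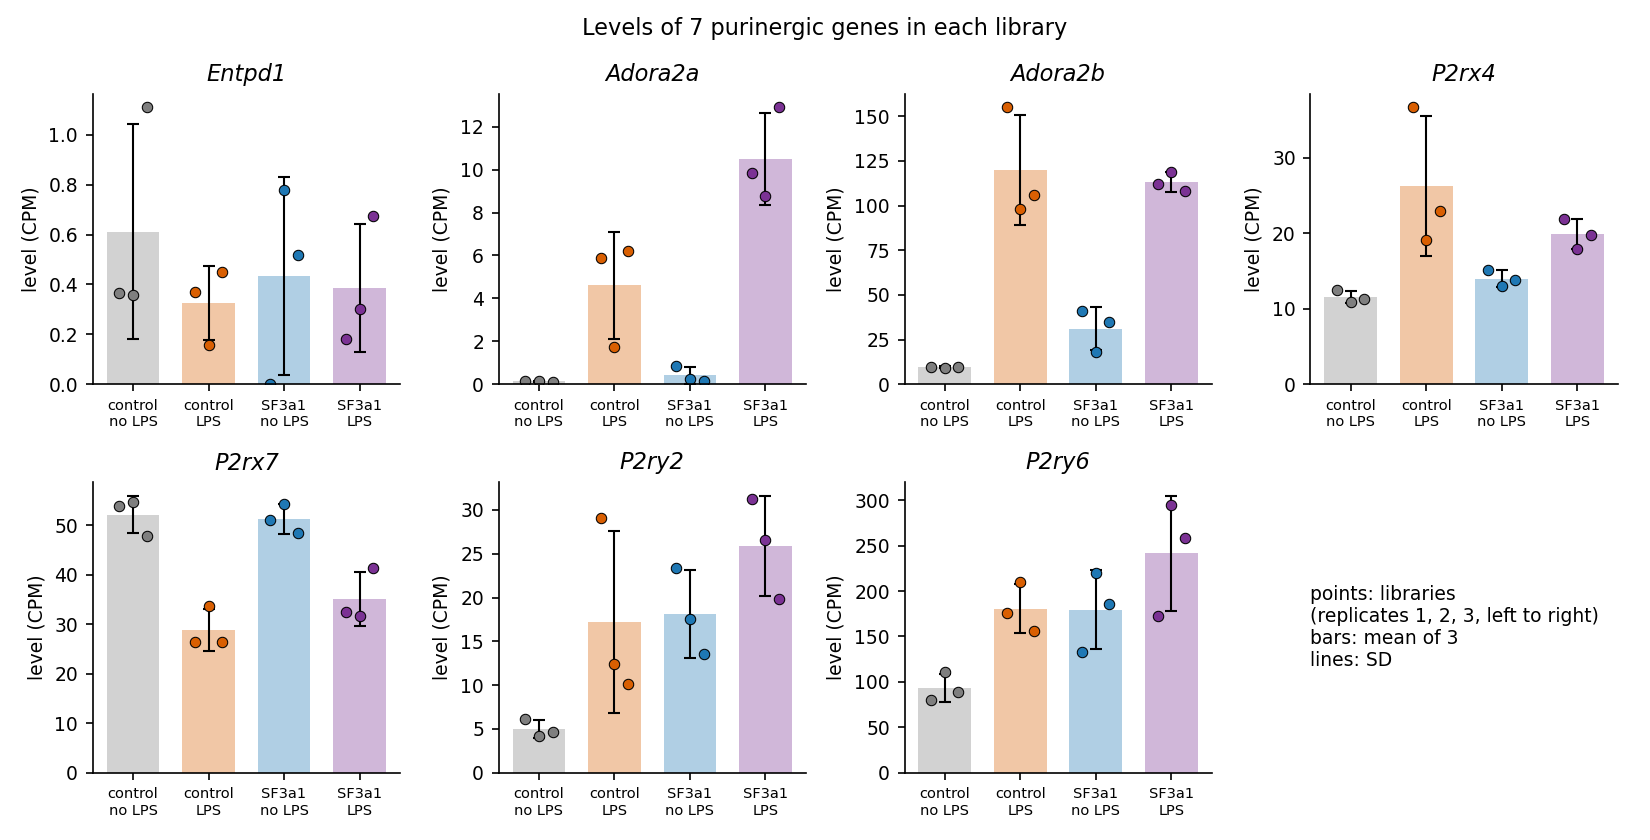
Levels (CPM, from 0) of the 7 other genes in the 4 groups, with points for libraries in the order of replicates 1, 2 and 3, bars for means and lines for the SD (n = 3). Adora2a and Adora2b are higher with LPS with either siRNA, P2rx7 is lower with LPS, and P2ry2 and P2ry6 are lowest with control siRNA and no LPS.

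Both adenosine receptors were higher with LPS than without it. Adora2a (ENSMUSG00000020178; chromosome 10 from 75316877 to 75334784, forward strand), which codes for the A2a receptor, was close to absent without LPS: 0.137, 0.134 and 0.128 CPM with control siRNA, from 12 counts over the 3 libraries. With LPS it had 5.89, 1.75 and 6.22 CPM. In cells with SF3a1 siRNA it had 0.874, 0.223 and 0.149 CPM without LPS and 9.86, 8.76 and 12.9 CPM with LPS. No library with LPS overlapped one without it. Adora2a was kept by the filter on low counts through its libraries with LPS, so its LPS change is given as a value without a p. The fitted fold with LPS was 33.8 with control siRNA (log2 fold change 5.08), against a base of only 12 counts, and 22.4 with SF3a1 siRNA (log2 fold change 4.49). The latter rested on replicate 1 of SF3a1 siRNA without LPS, at 0.874 CPM: without it the log2 fold change was 5.75. The interaction was -0.59 with a 95% interval from -2.38 to 1.20, so that a difference between these effects was not shown.

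The changes of Adora2a with SF3a1 siRNA were smaller, and their calls depended on single libraries. With LPS it rose 2.24-fold (log2 fold change 1.16, standard error 0.468, adjusted p = 0.0779, edgeR), and the groups did not overlap. This adjusted p rose to as much as 0.216 when 1 library was left out, while the log2 fold change stayed between 0.80 and 1.41. The call was lost without replicate 2 of control siRNA with LPS, or without replicate 1 or 3 of SF3a1 siRNA with LPS. Without LPS the fold was 3.37 (log2 fold change 1.75, standard error 0.717, adjusted p = 0.091, edgeR). That value rested on replicate 1 of SF3a1 siRNA, at 0.874 CPM: without it the log2 fold change was 0.49 and the adjusted p 0.713. The call was also lost without any 1 of the 3 libraries of control siRNA without LPS or of SF3a1 siRNA with LPS. Without replicate 1 of all 4 groups the log2 fold change was 0.52 (adjusted p = 0.773, edgeR). Both calls held with the replicate block (adjusted p = 0.0417 without LPS and 0.00735 with LPS, edgeR). They also held with DESeq2 (adjusted p = 0.0359 and 0.0537).

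Adora2b (ENSMUSG00000018500), the gene of the A2b receptor, spans bases 62248984 to 62266453 of chromosome 11 (forward strand) and has 2 exons. With control siRNA it had 9.94, 9.11 and 9.92 CPM without LPS and 155, 98.2 and 106 CPM with LPS. With SF3a1 siRNA it had 41.0, 17.9 and 34.7 CPM without LPS and 112, 119 and 108 CPM with LPS. The level without LPS was thus already higher with SF3a1 siRNA, with no overlap, while the levels with LPS overlapped. LPS raised Adora2b 12.4-fold with control siRNA (log2 fold change 3.63, standard error 0.282, adjusted p = 1.16e-06, edgeR) and 3.62-fold with SF3a1 siRNA (log2 fold change 1.86, standard error 0.261, adjusted p = 0.00058, edgeR). SF3a1 siRNA raised it 3.23-fold without LPS (log2 fold change 1.69, standard error 0.265, adjusted p = 0.000608, edgeR). With LPS the log2 difference between the siRNAs was -0.08, with a 95% interval from -0.63 to 0.461.

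Adora2b was the only one of the 7 whose LPS effect differed between the siRNAs in the model without the block. The interaction was -1.78 on the log2 scale (standard error 0.364, adjusted p = 0.0276, edgeR), and the adjusted p stayed between 0.00536 and 0.0803 when each of the 12 libraries was left out in turn. No change in its exon usage was called. The second exon bin held 77.9 ± 9.17% (SD, n = 3) of all Adora2b bin counts with control siRNA and no LPS, 73.8 ± 3.20% (SD, n = 2) with control siRNA and LPS, 79.0 ± 4.79% (SD, n = 3) with SF3a1 siRNA and no LPS and 77.6 ± 4.51% (SD, n = 3) with SF3a1 siRNA and LPS, and neither of the 2 bins was called in any comparison.

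The 250 bases before the start of Adora2b and of P2rx4 are shown because both genes rose with LPS and their windows (RefSeq, GRCm38.p6, chr11:62248734-62248983 and chr5:122707294-122707543, forward strand) end where the annotated gene begins. Capitals mark GC boxes (GGGCGG on either strand) in the first and the letters TGACG of the cAMP response element (here read as CGTCA on the printed strand) in the second.
Adora2b: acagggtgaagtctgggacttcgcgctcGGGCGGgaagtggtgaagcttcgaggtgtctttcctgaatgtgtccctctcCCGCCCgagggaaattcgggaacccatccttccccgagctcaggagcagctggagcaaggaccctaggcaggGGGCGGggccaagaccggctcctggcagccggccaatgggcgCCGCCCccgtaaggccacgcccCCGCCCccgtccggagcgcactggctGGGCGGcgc
P2rx4: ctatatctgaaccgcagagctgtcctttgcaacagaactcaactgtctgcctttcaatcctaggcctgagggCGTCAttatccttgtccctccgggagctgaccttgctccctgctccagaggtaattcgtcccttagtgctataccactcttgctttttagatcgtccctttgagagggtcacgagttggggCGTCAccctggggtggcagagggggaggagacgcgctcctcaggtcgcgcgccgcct
The Adora2b window holds 6 GC boxes, and 32.74% of 32851 promoter windows of this length hold at least 1. The P2rx4 window holds TGACG 2 times, at 178 and 57 bases before the start, and 17.77% of windows hold it. The full cAMP response element TGACGTCA, which contains these letters, is in 1.55% of windows, and it was not found in the windows of the 6 genes that had one (Nt5e, Entpd1, Adora2b, P2rx4, P2rx7 and P2ry2). GC boxes are also in windows of P2ry2, which rose with LPS, and of Nt5e and P2rx7, which were lower with LPS. TGACG is also in the windows of Entpd1, for which no change was shown. Such matches describe letters in a window, not bound sites.

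The channels P2rx4 and P2rx7 moved in opposite directions with LPS, although they are neighbours on chromosome 5 (P2rx7, ENSMUSG00000029468, from 122643911 to 122691432 and P2rx4, ENSMUSG00000029470, from 122707544 to 122729738, both on the forward strand). P2rx4, a channel of the plasma membrane and of lysosomes, had 12.5, 10.9 and 11.3 CPM with control siRNA and no LPS and 36.7, 19.1 and 23.0 CPM with LPS. LPS raised it 2.28-fold (log2 fold change 1.19, standard error 0.219, adjusted p = 0.00134, edgeR). With SF3a1 siRNA it had 15.2, 13 and 13.8 CPM without LPS and 21.9, 17.9 and 19.8 CPM with LPS. These did not overlap either, but the log2 fold change of 0.50 did not pass the test (adjusted p = 0.223, edgeR), and it did with the replicate block (adjusted p = 0.0533) or without replicate 1 of control siRNA with LPS (adjusted p = 0.0606). The difference between the siRNAs with LPS, -0.41 on the log2 scale (adjusted p = 0.181), was called with the replicate block (adjusted p = 0.0718) or without replicate 2 of control siRNA with LPS (-0.59, adjusted p = 0.0627). It was -0.08 without replicate 1 of that group (adjusted p = 0.754) and -0.16 without replicate 1 of all 4 groups (adjusted p = 0.492).

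P2rx7 had 54.0, 54.7 and 47.8 CPM with control siRNA and no LPS and 26.5, 33.8 and 26.4 CPM with LPS. It fell 1.81-fold with LPS (log2 fold change -0.86, standard error 0.154, adjusted p = 0.00112, edgeR). With SF3a1 siRNA it had 51.0, 54.4 and 48.5 CPM without LPS and 32.4, 31.7 and 41.4 CPM with LPS, again without overlap (fold 1.46 lower, log2 fold change -0.55, standard error 0.153, adjusted p = 0.0483, edgeR). The call of this smaller fall was lost without replicate 1 or 2 of either SF3a1 siRNA group (adjusted p of up to 0.158, edgeR). Its log2 fold change stayed between -0.68 and -0.47 when each library was left out in turn. The interaction of 0.31 had a 95% interval from -0.158 to 0.777. Without LPS the siRNAs differed by a log2 value of -0.02, with an interval from -0.353 to 0.306. In no group was the highest P2rx7 library more than 1.31 times the lowest, the smallest such limit of the 8 genes.

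P2ry2 and P2ry6 rose both with LPS and with SF3a1 siRNA when each came alone. P2ry2 (ENSMUSG00000032860; chromosome 7 from 100996568 to 101012866, reverse strand), a receptor for ATP and UTP, had 6.19, 4.2 and 4.68 CPM with control siRNA and no LPS. It had 29.1, 12.4 and 10.1 CPM with control siRNA and LPS, and 23.4, 17.5 and 13.5 CPM with SF3a1 siRNA and no LPS. Both sets lay above the first. LPS raised it 3.44-fold with control siRNA (log2 fold change 1.78, standard error 0.372, adjusted p = 0.00314, edgeR), with a log2 fold change of 1.15 without replicate 1 of control siRNA with LPS, and SF3a1 siRNA raised it 3.60-fold without LPS (log2 fold change 1.85, standard error 0.373, adjusted p = 0.00299, edgeR). With both, the level was 31.2, 26.6 and 19.8 CPM, which overlapped each of the single treatments. The difference between the siRNAs with LPS, 0.58 on the log2 scale, had an adjusted p of 0.252 (edgeR) and of 0.016 with the replicate block. Without replicate 1 of control siRNA with LPS, the library at 29.1 CPM, it was 1.21 (adjusted p = 0.00664), and without replicate 1 of all 4 groups 1.05 (adjusted p = 0.00283). The interaction of -1.27 had an adjusted p of 0.285, and of 0.0307 with the block. It was -0.64 without the library at 29.1 CPM (adjusted p = 0.503) and -0.76 without replicate 1 of all 4 groups (adjusted p = 0.246).

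P2ry6 (ENSMUSG00000048779; chromosome 7 from 100937630 to 100974649, reverse strand), a receptor for UDP, had 80.5, 111 and 89.0 CPM with control siRNA and no LPS. It had 176, 210 and 156 CPM with control siRNA and LPS and 133, 220 and 186 CPM with SF3a1 siRNA and no LPS. Neither range overlapped the first. LPS raised it 1.93-fold (log2 fold change 0.95, standard error 0.231, adjusted p = 0.00832, edgeR) and SF3a1 siRNA 1.92-fold without LPS (log2 fold change 0.94, standard error 0.231, adjusted p = 0.00943, edgeR). With both it had 172, 295 and 258 CPM. The difference between the siRNAs with LPS was 0.42 on the log2 scale (adjusted p = 0.194), and it was called with the replicate block (adjusted p = 0.0348) and without replicate 1 of SF3a1 siRNA with LPS (adjusted p = 0.0577). The LPS effect with SF3a1 siRNA, 0.43 (adjusted p = 0.355), was also called with the block (adjusted p = 0.0528). The predicted gene Gm44545 overlaps P2ry6 on the opposite strand, and it was not stated whether counting used the strand.

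**Figure D3:**
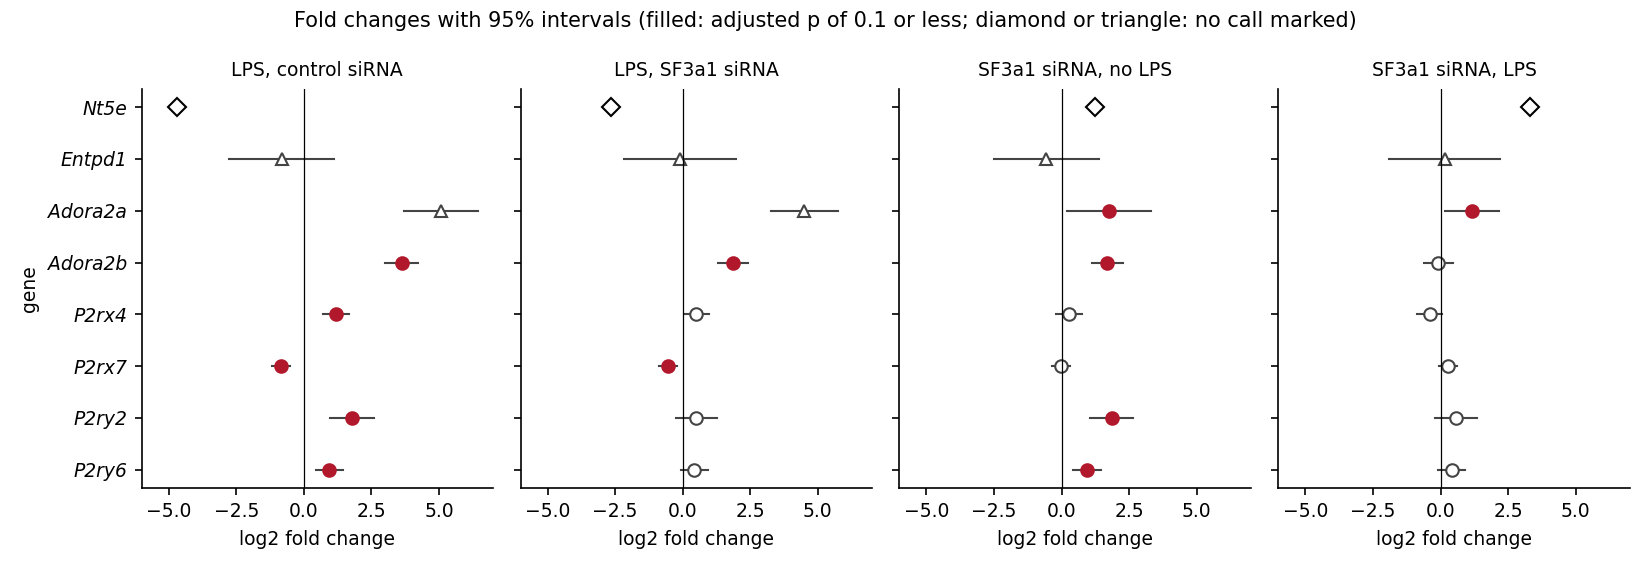
Log2 fold changes of the 8 genes in 4 comparisons, with 95% intervals for the 7 tested genes, filled where the adjusted p was 0.1 or less. Triangles (Adora2a for LPS, Entpd1 throughout) have no call marked, since the filter kept the gene only or mostly through 1 side of the comparison. Their intervals describe the fit and are not read as tests. Nt5e is drawn as a diamond without an interval, at -4.69 for LPS with control siRNA. Adora2b has a filled point in the first 3 comparisons and -0.08 for SF3a1 siRNA with LPS.

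Levels can be set side by side between genes only per length, here as CPM per kb of annotated exon. With control siRNA and no LPS the order was P2ry6 (32.4 ± 5.53, SD, n = 3), P2rx7 (8.74 ± 0.638), Adora2b (5.23 ± 0.257), Nt5e (1.98 ± 1.53), P2rx4 (1.64 ± 0.121), P2ry2 (1.28 ± 0.264), Entpd1 (0.109 ± 0.0770) and Adora2a (0.0434 ± 0.00162), in CPM per kb. Nt5e overlapped its neighbours P2rx4 and P2ry2 in the spread of its libraries. With control siRNA and LPS, Adora2b (64.9 ± 16.7 CPM per kb, SD, n = 3) and P2ry6 (62.6 ± 9.35) led and did not differ beyond their spread, while Nt5e came down to 0.0960 ± 0.125, next to Entpd1 at 0.0583 ± 0.0268. With SF3a1 siRNA, Nt5e had 4.69 ± 2.46 CPM per kb without LPS, close to P2ry2 at 4.61 ± 1.27, and 0.768 ± 0.675 with LPS. Per kb of the longest transcript instead, Nt5e had 10.1 ± 5.30 CPM per kb with SF3a1 siRNA and no LPS, next to P2rx7 at 10.4 ± 0.591 and above P2ry2 at 6.02 ± 1.66. With control siRNA and LPS that measure put P2ry6 (92.9 ± 13.9) above Adora2b and P2rx4 (6.74 ± 2.37) above P2rx7 (5.85 ± 0.859). P2ry6 was first with SF3a1 siRNA, at 62.2 ± 15.2 CPM per kb without LPS and 83.6 ± 21.9 with LPS.

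**Figure D4:**
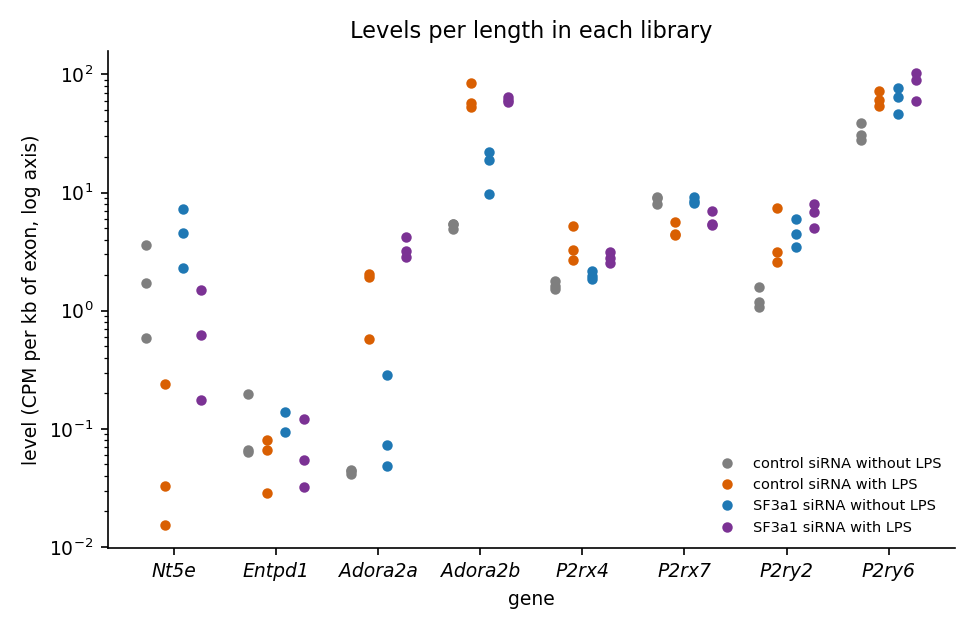
Level of each of the 8 genes per kb of annotated exon (log axis) in the 12 libraries, coloured by group. P2ry6 and Adora2b are the highest with LPS, Nt5e spreads over the widest range, and the Entpd1 library with 0 counts cannot be drawn on the log axis.

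Exon usage was called for no bin of these genes. Bins cover annotated exons only, so retention of introns outside them was not tested for these genes. Of their bins, 52 in 7 genes had enough counts to be tested, and none passed in any of the 5 comparisons, with a background of 0.0801% of all tested bins for LPS with control siRNA, 0.0254% for LPS with SF3a1 siRNA, 0.626% for SF3a1 siRNA without LPS, 0.492% with LPS and 0.0% for the interaction. By edgeR's diffSpliceDGE 3 of the 260 bin tests had an unadjusted p under 0.05, all in P2rx4, and by limma-voom 6 did, with none called. Bin 10 of P2rx4, 1 of the 3, held 5.26, 0.309 and 4.46% of all P2rx4 bin counts with control siRNA and no LPS and 0.672, 1.63 and 0.755% with SF3a1 siRNA and no LPS. It rested on 62 and 11 counts, and its log2 difference in usage of -1.88 had an adjusted p of 0.657.

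The wider purinergic lists held 49 genes by role, of which 48 were matched to the table and 27 were tested. The 21 that were not tested had at most 47 counts over the 12 libraries, and they included Adora1, P2rx1, P2ry1, P2ry12, Entpd2, Enpp1 and Cd38. Besides the 8 genes above, 19 were tested. Acpp was kept by the filter only through its libraries with LPS, and P2rx6 through those without LPS and those with SF3a1 siRNA, so they are left out of the counts that this fixes. For LPS with control siRNA 3 of the remaining 17 rose (background 13.8%), 7 fell (background 18.3%) and 7 were not called, with a median log2 fold change of -0.35 beside -0.02 over all tested genes. For LPS with SF3a1 siRNA 1 of the 17 rose and 1 fell (background 6.6% and 4.06%, median -0.04, all genes 0.01). For SF3a1 siRNA, of 18 without P2rx6, 4 rose and 3 fell without LPS (background 13.7% and 20.1%, median 0.15, all genes -0.02), and 5 rose and 1 fell with LPS (background 18.4% and 20.4%, median 0.36, all genes -0.04). Over all 19, with P2rx6 put back, the last counts were 6 and 1. With the replicate block they were 11 and 2, where 50.9% of all tested genes were called in either direction. Without replicate 1 of control siRNA with LPS they were 10 and 1. As the filter kept P2rx6 through its higher groups, these counts only describe how the calls moved with the processing.

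Among the other ecto-enzymes, Acpp, an acid phosphatase that can also make adenosine from AMP, was almost absent without LPS. It had 0, 1 and 0 counts with control siRNA and 0, 0 and 1 with SF3a1 siRNA. With LPS it had 6.73, 7.71 and 6.5 CPM with control siRNA and 4.09, 8.58 and 4.91 CPM with SF3a1 siRNA. Acpp was kept by the filter only through its libraries with LPS, so no p is given. From the pooled counts the level was 614 times higher with LPS with control siRNA (95% counting interval 110 to 24300) and 317 times with SF3a1 siRNA (56.5 to 12500). These intervals cover counting error only, leave out the spread between cultures and are not read as tests. Bst1, an enzyme that uses NAD, rose with LPS with control siRNA (log2 fold change 1.52) from 12.2, 16.1 and 14.5 to 60.4, 28.0 and 33.8 CPM and with SF3a1 siRNA without LPS (log2 fold change 1.03), and its 29.6, 26.0 and 32.1 CPM there became 38.1, 29.8 and 29.6 CPM with LPS.

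Adora3, the remaining adenosine receptor with enough counts, was lowest with control siRNA and no LPS, as P2ry2 was. It had 1.19, 0.714 and 0.383 CPM with control siRNA and no LPS, 5.44, 1.75 and 2.24 CPM with control siRNA and LPS, 4.15, 3.18 and 2.38 CPM with SF3a1 siRNA and no LPS, and 8.41, 4.17 and 3.85 CPM with both. It rose with LPS with control siRNA (log2 fold change 2.03, adjusted p = 0.0109, edgeR, and 1.34 without replicate 1 of control siRNA with LPS) and with SF3a1 siRNA without LPS (log2 fold change 2.04, adjusted p = 0.0114, edgeR). Without replicate 1 of control siRNA without LPS these values were 2.58 and 2.67. With the replicate block it was also called for LPS with SF3a1 siRNA (adjusted p = 0.0775), for SF3a1 siRNA with LPS (adjusted p = 0.0177) and for the interaction (adjusted p = 0.0537).

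Of the other P2X channels, P2rx6 had the same order of group means as Nt5e, an order that Gja1 of the ATP release genes also had. P2rx6 had 17, 25 and 27 counts with control siRNA and no LPS and 0, 0 and 1 with LPS. With SF3a1 siRNA it had 49, 95 and 53 counts without LPS and 6, 11 and 15 with LPS. It was kept by the filter through its libraries without LPS and with SF3a1 siRNA, where its counts were higher, so no p is given for either. Its pooled level with control siRNA was 52.7 times lower with LPS (95% counting interval 9.16 to 2110). That interval covers counting error only, leaves out the spread between cultures and is not read as a test. P2rx5 went the other way with LPS. It had 0.550, 0.179 and 0.213 CPM with control siRNA and no LPS, 0.605, 4.45 and 5.27 CPM with control siRNA and LPS, 1.09, 1.11 and 1.19 CPM with SF3a1 siRNA and no LPS, and 6.54, 22.1 and 35.5 CPM with SF3a1 siRNA and LPS. It rose with LPS with either siRNA (log2 fold change 3.26 and 4.23, adjusted p = 0.00951 and 0.00391, edgeR) and with SF3a1 siRNA with LPS (log2 fold change 2.68, adjusted p = 0.0117, edgeR), and its replicate 1 was low in both LPS groups. Without LPS the groups with SF3a1 and with control siRNA did not overlap, and the log2 fold change of 1.71 was not called (adjusted p = 0.165, edgeR). It was called by DESeq2 (adjusted p = 0.0387), without replicate 1 of control siRNA with LPS (adjusted p = 0.0668) and without replicate 1 of all 4 groups (2.51, adjusted p = 0.00283). The value for LPS with control siRNA was 4.07 without replicate 1 of control siRNA without LPS, and that for SF3a1 siRNA with LPS was 2.08 without replicate 3 of SF3a1 siRNA with LPS.

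Of the genes that take up or remove adenosine, 6 were tested, and with LPS and control siRNA 3 fell (background 18.3%) and 3 were not called. The transporters Slc29a1 and Slc29a2 fell (log2 fold change -0.81 and -1.01, adjusted p = 0.00389 and 0.00205, edgeR), as did Ada, adenosine deaminase (log2 fold change -1.02, adjusted p = 0.0179, edgeR). Ada had 26.2, 24.8 and 28.9 CPM with control siRNA and no LPS, 6.76, 16.7 and 16.3 CPM with LPS, 9.91, 8.97 and 11.4 CPM with SF3a1 siRNA and no LPS, and 6.29, 8.58 and 8.27 CPM with both. It was thus highest in the 3 libraries with control siRNA and no LPS, and SF3a1 siRNA lowered it without LPS (log2 fold change -1.40, adjusted p = 0.00329, edgeR). Slc29a2 had 10.4, 6.67 and 7.57 CPM with control siRNA and LPS and between 14.9 and 19.9 CPM in every other library. With SF3a1 siRNA, none of the 6 was called for LPS (background 10.7%), and without replicate 1 of all 4 groups 1 rose.

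The routes by which ATP leaves cells held 4 tested genes. Panx1, the pannexin channel, had 23.7, 18.7 and 17.6 CPM with control siRNA and no LPS and 12.1, 8.34 and 7.85 CPM with LPS, a fall that passed the test (log2 fold change -1.08, adjusted p = 0.00425, edgeR). With SF3a1 siRNA and LPS it had 21.5, 14.7 and 13 CPM, above each library with control siRNA and LPS (log2 fold change 0.80, adjusted p = 0.0217, edgeR), a call lost without replicate 1 of SF3a1 siRNA with LPS (adjusted p = 0.104). Gja1, connexin 43, fell with LPS with either siRNA (log2 fold change -0.77 and -1.40) and rose with SF3a1 siRNA without LPS (log2 fold change 1.28, adjusted p = 0.00315, edgeR), from 18.6, 29.1 and 23.0 to 44.5, 73.3 and 53.8 CPM. The call of its fall with control siRNA was lost without replicate 2 of the group without LPS, or replicate 2 or 3 with LPS. The adjusted p was then up to 0.187 (edgeR). With control siRNA and LPS Gja1 had 17.6, 13.5 and 10.0 CPM, below every library without LPS. Of the 4 intracellular relatives of CD39, Entpd5 and Entpd6 fell with LPS with control siRNA (log2 fold change -0.96 and -0.66), and Entpd4, which has a near-identical copy and uncertain counts, and Entpd7 were not called.

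**Figure D5:**
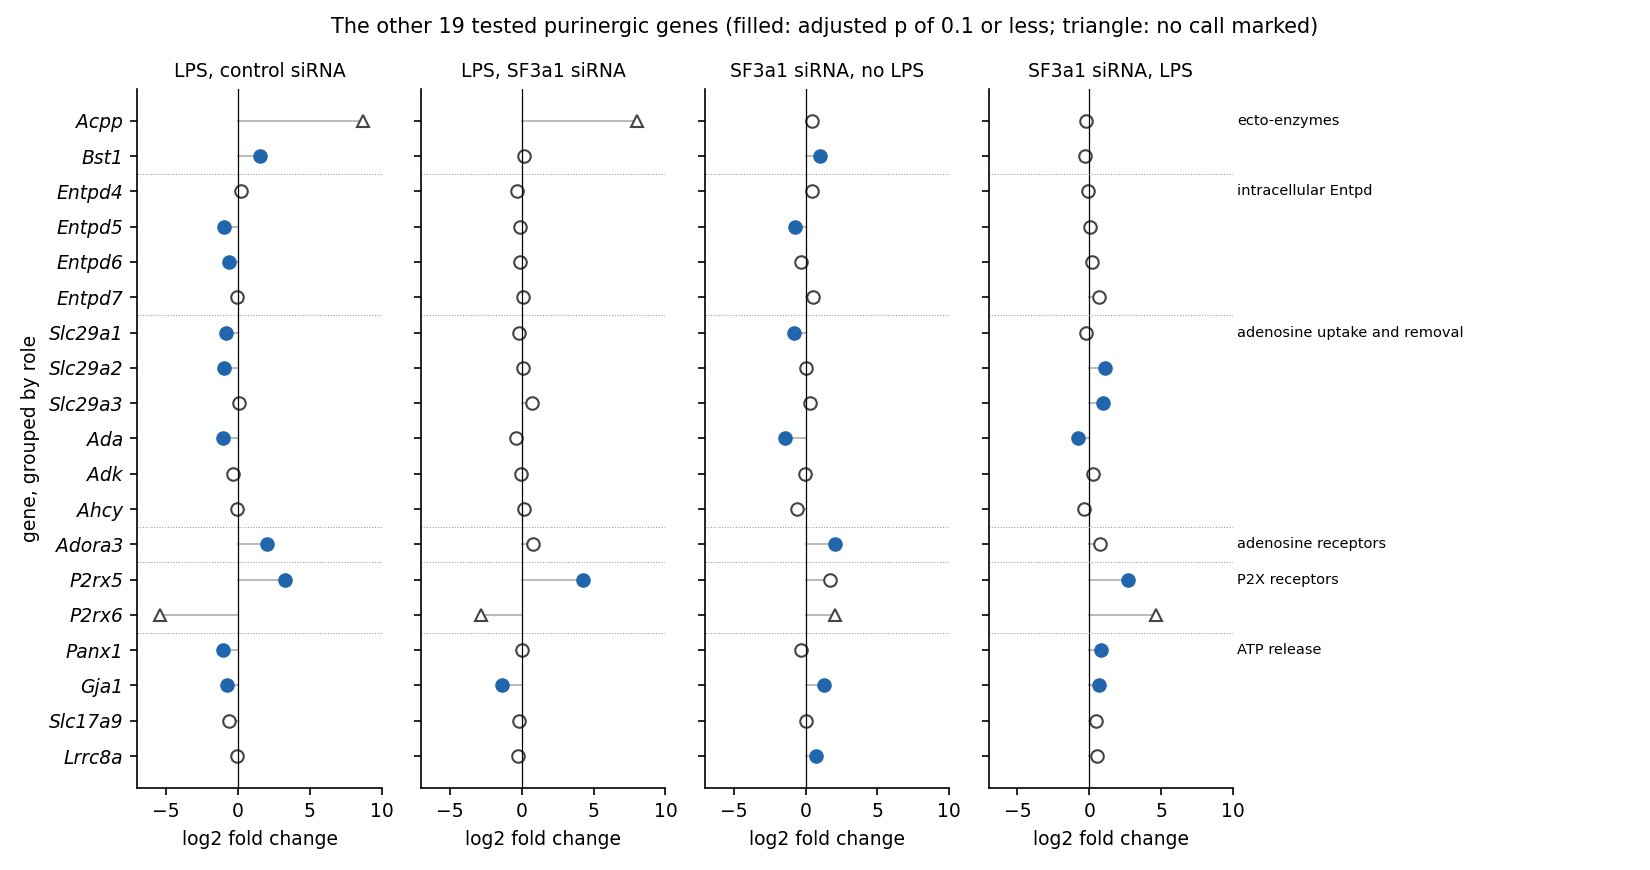
Log2 fold changes of the other 19 tested purinergic genes in 4 comparisons, grouped by role, filled where the adjusted p was 0.1 or less. Triangles (Acpp for LPS, P2rx6 throughout) have no call marked, since the filter kept the gene through 1 side of the comparison. Acpp has the highest points for LPS, P2rx6 lies below 0 for LPS and above 0 for SF3a1 siRNA, and most uptake, removal and intracellular enzyme genes lie at or below 0 for LPS with control siRNA. The points of Acpp and of P2rx6 for LPS with control siRNA rest on 1 count in 1 of the groups.

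The genes downstream of the receptors were counted in the same way. Of 7 genes of the P2X7 and inflammasome route, 6 were tested. Pycard was not, with 2 counts in each control siRNA group and 1 in each SF3a1 siRNA group. With LPS and control siRNA 5 rose (background 13.8%) and 1, Nek7, fell (background 18.3%), with Il1b kept by the filter through its libraries with LPS. Without Il1b 4 of 5 rose, and for LPS with SF3a1 siRNA 3 of these 5 rose and 1 fell (background 6.6% and 4.06%). Il1b, the cytokine released by this route, had 0.160, 0.0893 and 0.255 CPM with control siRNA and no LPS and 2390, 2660 and 4200 CPM with LPS, and 761, 1380 and 776 CPM with SF3a1 siRNA and LPS. With LPS, SF3a1 siRNA lowered Il1b (log2 fold change -1.67), Il18 (-1.96), Casp1 (-1.24) and Nlrp3 (-0.68), so that 4 of 6 fell (background 20.4%) and 1, Gsdmd, rose (0.44, background 18.4%). The call of Nlrp3 had an adjusted p of 0.0925 and was lost without replicate 2 or 3 of either control siRNA group or of SF3a1 siRNA without LPS, or without replicate 1 or 2 of SF3a1 siRNA with LPS, and that of Gsdmd was lost without replicate 2 of control siRNA with LPS. P2rx7 itself was not called there (log2 fold change 0.29, adjusted p = 0.184, edgeR), and it was without replicate 2 of control siRNA with LPS (0.41, adjusted p = 0.0932). The fits that left out 1 library gave values from 0.15 to 0.41.

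The list of genes known to respond to cAMP, the messenger of A2a and A2b, held 14. Of these Nr4a3, Il10 and Thbs1 were kept by the filter through their libraries with LPS and are left out of the count for LPS. Of the remaining 11, 5 rose (background 13.8%) and none fell (background 18.3%) with LPS and control siRNA, with a median log2 fold change of 1.17 beside -0.02 over all tested genes. For some genes of this list replicate 1 stood apart, and not only with control siRNA and LPS. In that group Nr4a1, a nuclear receptor, had 37.3, 3.02 and 6.22 CPM, and Thbs1, thrombospondin, had 38.2, 1.59 and 1.63 CPM. With SF3a1 siRNA and LPS Nr4a1 had 65.0, 18.4 and 17.3 CPM and Thbs1 had 31.3, 3.69 and 8.71 CPM. Nr4a1 was highest in replicate 1 in the groups without LPS too. Vegfa went the other way, with replicate 1 the lowest in every group. Over all 14, 8 rose and none fell with LPS and control siRNA. Without replicate 1 of control siRNA with LPS 8 rose and 2 fell, as they did without replicate 1 of all 4 groups. With SF3a1 siRNA and no LPS 5 of the 14 rose (background 13.7%) and none fell (background 20.1%), with a median of 1.07 beside -0.02. With SF3a1 siRNA and LPS 3 of the 14, Nr4a2, Fosl2 and Vegfa, rose (background 18.4%) and 1, Pde4b, fell (background 20.4%), with a median of 0.58 beside -0.04, and 7 rose and 1 fell without replicate 1 of control siRNA with LPS. Pde4b, a phosphodiesterase that breaks down cAMP, had 86.1, 96.3 and 117 CPM with control siRNA and LPS and 41.7, 41.8 and 48.5 CPM with SF3a1 siRNA and LPS (log2 fold change -1.18, adjusted p = 0.0124, edgeR). With the replicate block 9 rose without LPS, and 7 rose and 1 fell with LPS. The block called 47.1% and 50.9% of all tested genes in these comparisons, in either direction. For LPS with SF3a1 siRNA 3 of the 11 rose (background 6.6%) and none fell (background 4.06%). Areg, a growth factor of the EGF family, had 0.0687, 0.0447 and 0.0426 CPM with control siRNA and no LPS, from 3, 1 and 1 counts, 1.68, 0.836 and 0.818 CPM with SF3a1 siRNA and no LPS, and 4.26, 6.83 and 4.77 CPM with control siRNA and LPS. These groups did not overlap. With SF3a1 siRNA and LPS it had 9.17, 6.59 and 2.93 CPM, which overlapped control siRNA with LPS. The interaction of Areg was -4.00 on the log2 scale. No library with control siRNA and no LPS reached the minimum of the filter, which kept Areg through the groups where it was higher. So no p is given for it. No other gene of the 14 had a called interaction. Fosl2, an AP-1 subunit, was not called for LPS and rose with SF3a1 siRNA without and with LPS (log2 fold change 2.73 and 2.47), from 131, 108 and 144 to 913, 668 and 948 CPM without LPS. With LPS the value was 3.21 without replicate 1 of control siRNA with LPS and 1.90 without replicate 1 of SF3a1 siRNA with LPS. Many of these genes have other inducers, and cAMP was not measured.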

How the data were processed

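PolyA RNA of the 12 cultures was sequenced on an Ion Proton. Per the methods and the submitters' processing notes, the authors aligned reads to mm10 with GSNAP, kept uniquely mapping reads and counted them with HTSeq. The deposited values are raw counts per Ensembl gene and per exon bin. Exon counts of 11 libraries were analysed here. Whether counting used the strand is not given in the sources used here. Reads on no gene, 17.8 to 27.2% of a library, were left out of totals. Without LPS, replicates 1, 2 and 3 had 27.2, 21.56 and 20.83% with SF3a1 siRNA and 18.21, 19.63 and 17.85% with control siRNA. With LPS the siRNA groups overlapped. A bearing of this share on the gene levels was not tested.

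Genes were tested in R 4.3.3 with edgeR 4.0.16 (quasi-likelihood test, TMM scaling, filterByExpr, 1 mean for each of the 4 groups, Benjamini-Hochberg adjusted p of 0.1 or less over all 14983 genes tested), and exon bins with diffSpliceDGE. A standard error is the log2 fold change divided by the root of F. The steps were tested on simulated data. Alternatives were DESeq2 1.42.0, its size factors, limma 3.58.1 for bins, no filter, a replicate block, only the groups compared, a higher bin minimum, no replicate 1, and leaving out each library. Samples sharing a replicate number in the labels deviated together from their group means in each of 18 pairs (r from 0.143 to 0.6, other pairs -0.523 to 0.345). So the block was taken to pair them. Pairs of a replicate 2 with a replicate 3 were also positive (r from 0.0401 to 0.345). The numbers thus set replicate 1 apart more clearly than 2 from 3. No 2 replicates agreed within sampling noise (chi-square per degree of freedom 6.55 to 81.8). Intervals of pooled count ratios are exact Clopper-Pearson intervals. Symbols, coordinates and exon lengths came from GENCODE vM21, promoters from RefSeq.

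The 8 genes, the gene lists and the tests were chosen with earlier results of these data known. Genes named are the 8, Sf3a1, marker genes, members of the purinergic, inflammasome and cAMP lists, and the 5 genes with at least 1 CPM on average whose log2 CPM had the highest Pearson's r with Nt5e.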

Additional observations from a re-analysis of the deposited data

Results flagged for a closer look

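By the interaction term of edgeR's quasi-likelihood test, the LPS effect differed between cells with SF3a1 and with control siRNA for 3 genes. For Il1b and Areg only the value is given. All of these genes come from 26 tested purinergic genes without Nt5e, 6 inflammasome genes and 14 cAMP genes. Over all tested genes 3.47% had a called interaction. For Adora2b the difference was -1.78 on the log2 scale (adjusted p = 0.0276), since the level without LPS was higher with SF3a1 siRNA while the levels with LPS overlapped. For Bst1 it was -1.36 (adjusted p = 0.0758), a call lost in 8 of the 12 fits that each left out 1 library, without replicate 2 or 3 of SF3a1 siRNA with LPS or any library without LPS. For Slc29a2 it was 1.08 (adjusted p = 0.072), a call lost in 9 of 12, all but those without replicate 1 of control siRNA with LPS or of SF3a1 siRNA without or with LPS. For Il1b it was -3.31, and -2.26 without replicate 1 of SF3a1 siRNA without LPS. Il1b was kept by the filter through its libraries with LPS and its counts without LPS were low, so no p is given. For Areg it was -4.00, on 3, 1 and 1 counts with control siRNA and no LPS. The filter kept Areg through the other groups, where it was higher, so no p is given.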

How the results depend on the processing

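The replicate block moved the gene calls for LPS with SF3a1 siRNA from 1598 to 3115 and for the interaction from 520 to 1756. Among the 7 tested genes it moved the calls to 5 for LPS with SF3a1 siRNA (4 without Adora2a, which the filter kept through its libraries with LPS), 4 for SF3a1 siRNA with LPS and 2 for the interaction. Among the 26 purinergic genes it moved them to 17 for SF3a1 siRNA with LPS and 8 for the interaction. In the order of these 3 comparisons 20.8%, 50.9% and 11.7% of all tested genes were called with it. The block changed no call of the 7 genes other than those given above. Exon bin calls became 285, 105, 2113, 1793 and 2 with the block in the order LPS with control siRNA, LPS with SF3a1 siRNA, SF3a1 siRNA without LPS, with LPS, and interaction, and 21 and 1 with limma-voom for LPS with SF3a1 siRNA and the interaction. Interaction calls over all genes were 930 with no filter, 965 with DESeq2 and 1012 without replicate 1 of all groups. Over the purinergic genes they were 5, 5 and 6, and over the 7 genes 2 with no filter. Without replicate 1 of all groups SF3a1 siRNA with LPS gave 3 calls of the 7 genes and 14 of the purinergic genes. The causes were not tested.

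Leaving out 1 library at a time gave 3961 to 4946 genes for LPS with control siRNA, 1063 to 1995 for LPS with SF3a1 siRNA, 3877 to 5604 for SF3a1 siRNA without LPS, 4732 to 5966 with LPS and 277 to 708 for the interaction. In the same order the 7 genes gave 6 to 6, 2 to 4, 3 to 4, 0 to 2 and 1 to 1 calls. The purinergic genes gave 17 to 19, 6 to 8, 10 to 13, 4 to 13 and 1 to 4. The LPS counts of both include Adora2a, and the purinergic counts also Acpp and P2rx6. The filter kept these genes through their higher groups, so their calls there say nothing about stability. Exon bins gave 44 to 153, 26 to 43, 529 to 1060, 103 to 897 (103 without replicate 1 of control siRNA with LPS) and 0 to 2.

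Signs turned only for effects that were not called. With 1 library left out, Entpd1 ranged from -0.80 to 0.81 for LPS with SF3a1 siRNA, from -1.42 to 0.24 for SF3a1 siRNA without LPS, from -0.54 to 0.54 with LPS (-0.084 with the block) and from -0.052 to 1.61 for the interaction. P2rx7 for SF3a1 siRNA without LPS ranged from -0.023 to 0.10, and was 0.038 with DESeq2 or its size factors and 0.0062 without replicate 1 of all groups. Adora2b for SF3a1 siRNA with LPS ranged from -0.21 to 0.15, and was 0.15 without replicate 1 of all groups. The interaction of Adora2a ranged from -0.96 to 0.67, and was 0.88 without replicate 1 of all groups. Low counts limit Entpd1, Adora2a without LPS, Acpp, P2rx6, Areg and Il1b without LPS, and no exon bin of Entpd1 could be tested.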
